A study of Mus musculus with 6 samples.

Results

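The transcription factor GFI1 represses genes through a small set of partner proteins, and the genes of 8 of them, *Kdm1a*, *Rcor1*, *Rcor3*, *Hdac1*, *Hdac2*, *Ehmt2*, *Zmym2* and *Phf21a*, were followed by name among 14865 genes listed for the mouse cochlear duct. They were chosen for what their proteins do, with earlier results of these data known. All 8 were listed in every library and all 8 entered the test. RNA came from cochlear ducts of mice at postnatal day 8 (P8), labelled as C57BL/6. The libraries were of 2 genotypes with 3 each, wild-type Gfi1+/+ and heterozygous Gfi1cre/+, and no other allele or agent is named for either. In Gfi1cre/+ mice 1 copy of *Gfi1* carries Cre recombinase in place of most of its coding exons. This driver is used to recombine floxed genes in hair cells and is also active in macrophages. No floxed gene was part of the comparison, so it asks what the knock-in allele itself goes with.

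GFI1 carries a SNAG domain at its amino terminus, a short stretch that docks onto the lysine demethylase KDM1A (LSD1). KDM1A removes methyl groups from lysine 4 of histone H3 and works in a complex with a CoREST scaffold, the histone deacetylases HDAC1 and HDAC2, the zinc finger protein ZMYM2 and the reader PHF21A (BHC80), which binds the unmethylated form of the same lysine. EHMT2 (G9a) adds repressive methyl groups to lysine 9 of histone H3. Hair cells need GFI1 to survive and mature, whereas its partners are used by many factors in nearly every cell type.

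Each Gfi1+/+ library was made from a single mouse and each Gfi1cre/+ library from a pool of several mice, so the spread within Gfi1cre/+ is already averaged over animals. Between 13603908 and 19359753 reads per library were counted on genes. A floor of 3 reads equals 2.61 to 3.70 normalized reads, a normalized read being a read count divided by the size factor of its library. The Y-linked *Ddx3y* was at 0 in the 3 Gfi1+/+ libraries and at 231.5, 289.4 and 485.0 normalized reads in the Gfi1cre/+ libraries, so the sex of the animals and their genotype cannot be told apart. On the first principal component, with 54.3% of the variance, Gfi1+/+ replicate 1 stood at -44.0 and the other 5 libraries between -0.304 and 16.2. Listed above 0 were 15 of 16 hair cell markers and 7 of 8 supporting cell markers, with *Atoh1* and *Hes5* not listed. Between 14846 and 14857 of the 14865 listed genes were above 0 in each library, so being listed does not test the tissue label. Summed hair cell markers came to 10824 to 12262 normalized reads in Gfi1+/+ and 10571 to 10954 in Gfi1cre/+, and 12 of 15 were lower in Gfi1cre/+. Of 9 neuron markers, 9 were lower in Gfi1cre/+ (summed 5384 to 12213 against 4882 to 5332), and of 8 erythroid and 6 granulocyte precursor markers, 8 and 6 were higher. The summed erythroid markers ran from 29477 to 43833 in Gfi1+/+ and from 38346 to 66371 in Gfi1cre/+, and the granulocyte precursor markers from 61.7 to 271.1 and from 236.1 to 460.4. Macrophage markers went both ways, with 8 of 13 higher and 5 lower in Gfi1cre/+ (summed 8434 to 9124 in Gfi1+/+ and 8389 to 8966 in Gfi1cre/+). Of all these listed markers only the erythroid *Hemgn* was at 0 in a library, Gfi1+/+ replicate 1. Their part in the values that follow was not tested. In this bulk tissue, fewer cells of a type and less RNA per cell cannot be told apart.

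In replicates 1, 2 and 3, *Gfi1* itself had 146.9, 160.2 and 151.9 normalized reads with the Gfi1+/+ genotype and 135.8, 129.6 and 138.7 with the Gfi1cre/+ genotype. Every Gfi1+/+ library was above every Gfi1cre/+ library. The means were 153 ± 6.72 and 135 ± 4.65 (SD, n = 3), a log2 fold change of -0.18 with a 95% interval of -0.40 to 0.04. This was not called (limma, Benjamini-Hochberg adjusted p = 0.999). The paper gives as a reason that exons kept by the knock-in allele still add to a whole-gene count. It also states that its sequencing had too few reads to compare single exons. Its quantitative PCR on newborn cochleae found less of the replaced exons and no change in the kept ones. Exons were not counted apart here, so the part of the kept exons was not tested.

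The 8 partners were each expressed far above the floor, with 258 to 3642 counted reads per gene and library, and none was called between the genotypes. The mean was higher in Gfi1cre/+ for 4 of 8 and lower for 4 of 8 on the log2 scale, and the median log2 fold change was -0.0015, beside -0.00012 over all 14455 genes tested. At an adjusted p under 0.05, 0 of 8 were called by limma, beside 0.0277% of all genes tested. At an unadjusted p under 0.05 the count was again 0 of 8, beside 3.04% of all genes. The libraries of both genotypes overlapped for all 8, whereas they did not overlap for 7.52% of all genes tested. DESeq2 and edgeR on the recovered reads also called 0 of 8. For 7 of 8 the log2 fold change was within 0.1 in either direction, as it was for 70.6% of all genes, and *Hdac1* was the exception. Added up, the 8 genes gave 10190, 10220 and 10583 normalized reads in Gfi1+/+ and 10253, 10416 and 10488 in Gfi1cre/+.

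**Figure D1:**
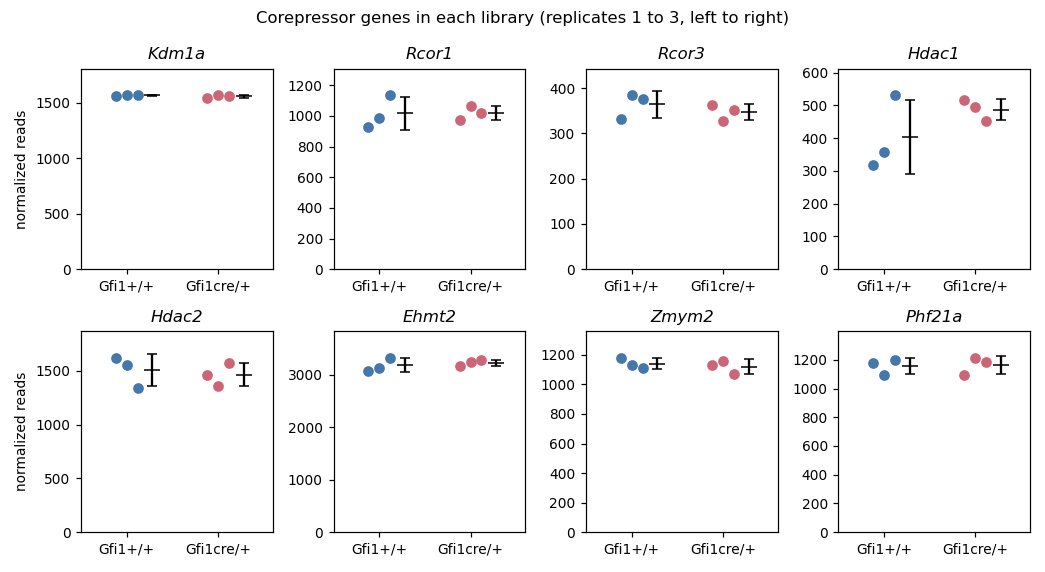
Normalized reads (y axis, from 0, its own scale in each panel) of each corepressor gene in the 3 Gfi1+/+ libraries (blue) and the 3 Gfi1cre/+ libraries (red), with the mean and SD of each genotype beside the points. The points of *Kdm1a* lie almost on a line, between 1545 and 1572, and those of *Hdac1* spread from 318 to 533 with the lowest pair in Gfi1+/+.

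*Kdm1a*, the demethylase at the centre of the complex (ENSMUSG00000036940, chromosome 4, 136550540 to 136602723, minus strand, GRCm38), was at 1563, 1572 and 1567 normalized reads in Gfi1+/+ and at 1545, 1567 and 1563 in Gfi1cre/+. The 6 values were nearly equal, and the lowest and highest differed by a factor of 1.02. The log2 fold change was -0.01 (95% interval -0.12 to 0.10), which corresponds to 0.922 to 1.07 times the Gfi1+/+ level. Its coefficient of variation over the 6 libraries was 0.598%, below the 2.54% that counting error alone gives for that many reads. Over all 14455 genes tested, only 1 other gene, *Tspan7*, had a smaller SD on the log2 scale. A spread below counting error does not measure how steady a gene is in the tissue. The rank therefore does not single out *Kdm1a* as unusually stable. *Tspan7* encodes a membrane protein of the tetraspanin family and is named here because its value was seen.

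The genes most like *Kdm1a* in profile were sought among the 10365 genes averaging 200 or more normalized reads, by the root mean square difference of the centred log2 values over the 6 libraries. They were *Whsc1* and *Tspan7* at 0.0077 and 0.0082, *Cdc14a* at 0.0083, *Prkar1a* at 0.012 and *Dhx33* at 0.013. *Whsc1* encodes a histone H3 lysine 36 methyltransferase and *Prkar1a* a regulatory subunit of protein kinase A. What these genes have in common with *Kdm1a* here is a flat profile. The nearest of the other partners was *Ehmt2*, at rank 699 with a difference of 0.038.

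*Rcor1* and *Rcor3* encode CoREST scaffolds, which hold KDM1A to the deacetylases. *Rcor1* (chromosome 12) was at 925.8, 988.4 and 1138 normalized reads in Gfi1+/+ and 972.2, 1063 and 1019 in Gfi1cre/+. The Gfi1cre/+ values all fell inside the range of Gfi1+/+, and the log2 fold change was 0.01 (95% interval -0.18 to 0.19). *Rcor3* (chromosome 1) was at 330.8, 385.3 and 375.5 in Gfi1+/+ and 362.9, 326.7 and 351.9 in Gfi1cre/+. Its groups overlapped too, with a log2 fold change of -0.07 (95% interval -0.26 to 0.12). Of the exon bases of *Rcor3*, 8.34% are shared with genes annotated on the opposite strand, *Gm10516*, *Gm26879* and *Gm37055*, and the strand setting of the counting is not given in the sources used here.

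*Ehmt2*, the lysine 9 methyltransferase (chromosome 17), had the highest read counts of the 8, at 3071, 3134 and 3323 normalized reads in Gfi1+/+ and 3170, 3231 and 3281 in Gfi1cre/+. The groups overlapped, the log2 fold change was 0.02 (95% interval -0.10 to 0.14) and the coefficient of variation was 2.95%, against 1.78% from counting. *Zmym2*, whose product is a zinc finger subunit that also binds SUMO (chromosome 14), was at 1181, 1130 and 1112 in Gfi1+/+ and 1134, 1161 and 1068 in Gfi1cre/+. Its log2 fold change was -0.03 (95% interval -0.16 to 0.10). A stretch of 379 bases of its transcript is 92.3% identical to *Zmym5*, but only 1.48% of its 100-base windows have an exact copy in another gene's transcript. *Phf21a*, the histone reader (chromosome 2), was at 1178, 1095 and 1197 in Gfi1+/+ and 1095, 1215 and 1182 in Gfi1cre/+, with a log2 fold change of 0.01 (95% interval -0.13 to 0.15). For these 3 genes no library of either genotype stood apart.

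The deacetylase pair differed in spread. *Hdac2* (chromosome 10) was at 1622, 1557 and 1338 normalized reads in Gfi1+/+ and 1458, 1358 and 1571 in Gfi1cre/+, with a log2 fold change of -0.04 (95% interval -0.23 to 0.15). *Hdac1* (ENSMUSG00000028800, chromosome 4) was at 318.5, 359.1 and 532.7 in Gfi1+/+ and 516.1, 494.4 and 452.0 in Gfi1cre/+. Gfi1+/+ replicates 1 and 2 were the lowest of the 6 libraries and Gfi1+/+ replicate 3 the highest, so the groups overlapped. The means were 403 ± 114 and 488 ± 32.6 (SD, n = 3), a log2 fold change of 0.31 with a standard error of 0.165 and a 95% interval of -0.07 to 0.68 (limma, unadjusted p = 0.0964, adjusted p = 0.999). The coefficient of variation was 19.7%, against 4.89% from counting, and the SD on the log2 scale was above that of 98.3% of the genes with a mean of at least 200. Without Gfi1+/+ replicate 3 the log2 fold change was 0.52 and *Hdac1* was called (limma, adjusted p = 0.0477), in a fit that called 0.332% of all genes tested. Without Gfi1+/+ replicate 1 it was 0.15 and was not called. The same pair of Gfi1+/+ libraries had the highest summed neuron markers, at 12213 and 6909 normalized reads against 4882 to 5384 in the other 4, and the lowest summed granulocyte precursor markers, at 61.7 and 78.5 against 236.1 to 460.4. The part of these markers in the *Hdac1* values was not tested.

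**Figure D2:**
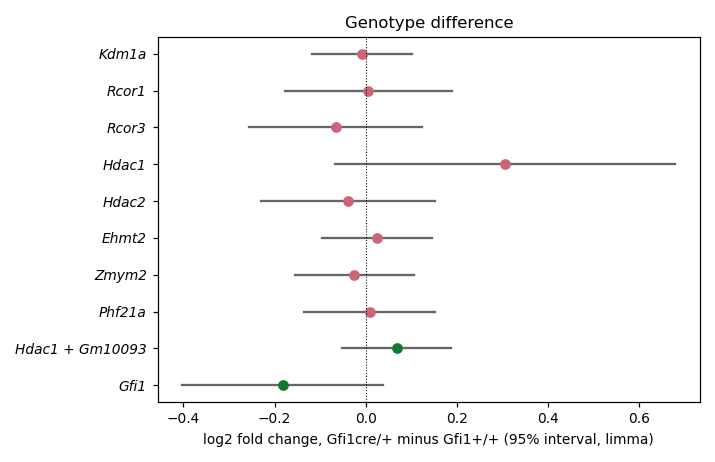
Log2 fold change of Gfi1cre/+ minus Gfi1+/+ (x axis, points) with its 95% interval from limma (lines, 3 libraries per genotype) for the 8 corepressor genes (red) and, for comparison, for *Hdac1* summed with its copy *Gm10093* and for *Gfi1* (green). The interval of *Hdac1*, from -0.07 to 0.68, is the widest, that of the sum, most of which is the copy, runs from -0.05 to 0.19, and every interval includes 0.

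*Hdac1* also differed from the other partners in its sequence. *Gm10093* (ENSMUSG00000061062) is a processed pseudogene of *Hdac1*, a copy without introns, on chromosome 17 at 78491582 to 78493025 (plus strand, GRCm38). It is named here because it was found after the values had been seen. Its 1444 bases line up with the *Hdac1* transcript with 9 differing bases (99.4% identity) and cover 70.9% of that transcript's 2038 bases, and the longest run without a difference is 450 bases. Of the 100-base windows of the *Hdac1* transcript, 46.8% have an exact copy in the transcript of another gene, whereas *Kdm1a*, *Rcor1*, *Rcor3*, *Hdac2*, *Ehmt2* and *Phf21a* have none. The paired reads that the paper describes are longer than these windows, so 46.8% is not the share of reads that fit both genes. To show how alike *Hdac1* and *Gm10093* are, the 120 bases where most of the differences lie are given for both genes. They run 5′ to 3′ along the transcript and come from the GENCODE M21 transcripts of GRCm38. The stretch is in coding exon 5 of *Hdac1* (chr4:129522975-129523094, minus strand) and in the single exon of *Gm10093* (chr17:78491944-78492063, plus strand). Capitals mark the 6 of the 9 differing bases that fall within it.
Hdac1: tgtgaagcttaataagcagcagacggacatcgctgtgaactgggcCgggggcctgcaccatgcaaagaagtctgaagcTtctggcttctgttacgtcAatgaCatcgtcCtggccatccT
Gm10093: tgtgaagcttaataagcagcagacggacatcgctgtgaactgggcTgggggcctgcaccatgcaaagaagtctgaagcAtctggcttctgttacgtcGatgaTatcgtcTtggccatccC

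More reads were counted on the copy than on *Hdac1*. *Gm10093* was listed at 1773, 1679 and 1588 normalized reads in Gfi1+/+ and at 1737, 1712 and 1641 in Gfi1cre/+, which was 2.98 to 5.57 times the *Hdac1* value of the same library. Within Gfi1+/+ the order of the replicates was opposite for the 2 genes, with replicate 1 lowest for *Hdac1* and highest for *Gm10093*, and within Gfi1cre/+ it was the same for both. Their sum was 2091, 2039 and 2120 in Gfi1+/+ and 2253, 2207 and 2093 in Gfi1cre/+. The means of the sum were 2083 ± 41.4 and 2184 ± 82.6 (SD, n = 3), a log2 fold change of 0.07 (standard error 0.0529, 95% interval -0.05 to 0.19; limma, adjusted p = 0.999). The coefficient of variation was 3.77% for the sum and 3.98% for *Gm10093* alone. Since the copy makes up most of the sum, a steady sum does not show whether reads were exchanged between the gene and its copy. *Hdac1* took 15.2%, 17.6% and 25.1% of the sum in Gfi1+/+ and 22.9%, 22.4% and 21.6% in Gfi1cre/+, shares that overlapped between the genotypes (exact permutation test, two-sided p = 0.4, where 0.1 is the smallest possible with 3 against 3). How the authors' alignment divided the reads between the gene and its copies was not tested. Further copies, among them *Gm4864* at 94.3% identity, are in the annotation and not in the list of genes. The *Hdac1* level is therefore uncertain.

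**Figure D3:**
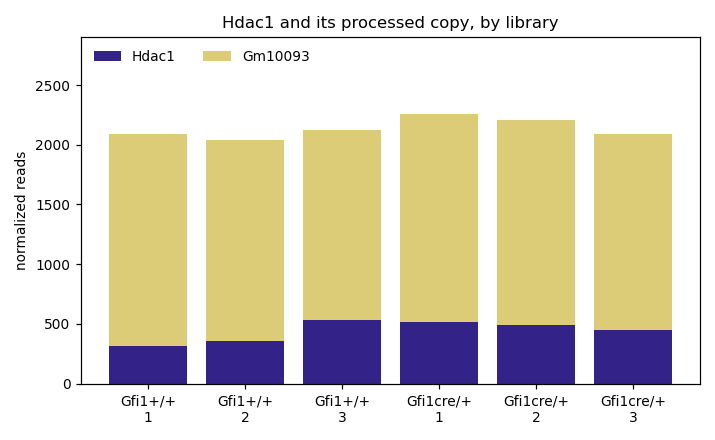
Normalized reads (y axis, from 0) counted on *Hdac1* (dark) and on its processed copy *Gm10093* (light), stacked, in each of the 6 libraries (x axis, genotype and replicate). The stacked height runs from 2039 to 2253 and the *Hdac1* part from 318 to 533, and the copy is the larger part in every library.

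Between genes, levels were compared in reads per kilobase of exon (normalized reads divided by the length of the gene's merged exons in kilobases). *Ehmt2* led with a mean of 583 ± 17.2 (SD over 6 libraries), above 89.5% of the listed genes. *Hdac2* at 332 ± 26.4 and *Kdm1a* at 302 ± 1.80 followed and were not apart, since *Hdac2* was the higher in 5 of 6 libraries. *Rcor1* at 179 ± 13.1 was above *Zmym2* in 6 of 6. *Zmym2* at 144 ± 5.02, *Phf21a* at 136 ± 6.11 and *Hdac1* at 129 ± 25.5 could not be ordered beyond their spread, and *Rcor3* was last at 26.1 ± 1.74. *Gfi1* itself had 45.1 ± 3.54, so 7 of the 8 partners were above *Gfi1* in this bulk tissue by either length measure, and *Rcor3* was below it by this one only. These levels are summed over all cells of the tissue. They do not give the level of a partner relative to *Gfi1* inside the cells that make GFI1.

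The order depended on the length used. Per kilobase of the longest transcript, *Ehmt2* was again first at 795 ± 23.4 and *Rcor3* again last at 93.8 ± 6.24, but *Kdm1a* at 516 ± 3.09 was above *Hdac2* at 457 ± 36.4 in 6 of 6 libraries. *Rcor3* moved most in level, because its merged exons add up to 13622 bases and its longest transcript has 3791. By this length it was above *Gfi1*, which had 50.3 ± 3.94, so its place relative to *Gfi1* turned with the length chosen. With the reads of *Gm10093* added, *Hdac1* came first at 619 ± 23.4 per kilobase of merged exon, above *Ehmt2* in 6 of 6 libraries.

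The ratio to *Gfi1* within a library does not depend on how libraries are scaled, but it is taken over all cells of the tissue and does depend on their mix. For *Kdm1a* it was 10.6, 9.81 and 10.3 reads per *Gfi1* read in Gfi1+/+ and 11.4, 12.1 and 11.3 in Gfi1cre/+, which did not overlap. For *Ehmt2* it was 20.9, 19.6 and 21.9 against 23.3, 24.9 and 23.7. The mean ratio was higher in Gfi1cre/+ for all 8 genes, and for 4 of 8, *Kdm1a*, *Rcor3*, *Ehmt2* and *Phf21a*, every Gfi1cre/+ library was above every Gfi1+/+ library. The same held for 41.0% of all genes tested, since every ratio shares the *Gfi1* reads. The median shift in log2 ratio was 0.18 for the 8 genes and 0.18 for all genes. The summed partners came to 69.4, 63.8 and 69.7 reads per *Gfi1* read in Gfi1+/+ and 75.5, 80.4 and 75.6 in Gfi1cre/+, a factor of 1.14 (two-sided p = 0.1 by an exact permutation test, which can give no smaller value here). Leaving out each library in turn kept the factor between 1.11 and 1.16. Set against 2 hair cell genes, *Gfi1* itself was at 0.227 ± 0.0257 reads per *Myo7a* read in Gfi1+/+ and 0.205 ± 0.0151 in Gfi1cre/+ (SD, n = 3), and at 0.277 ± 0.0416 and 0.268 ± 0.0025 reads per *Pou4f3* read, with overlapping libraries in both. These 2 are among 15 listed hair cell markers, and ratios to the rest were not computed. The log2 fold change was -0.18 for *Gfi1*, -0.04 for *Myo7a*, -0.15 for *Pou4f3* and 0.03 for *Myo6*. Of the 15 markers 12 were lower and 3 higher in Gfi1cre/+, so the ratio can turn on the marker chosen. *Myo7a* encodes a myosin of the hair bundle and *Pou4f3* a transcription factor that hair cells need.

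**Figure D4:**
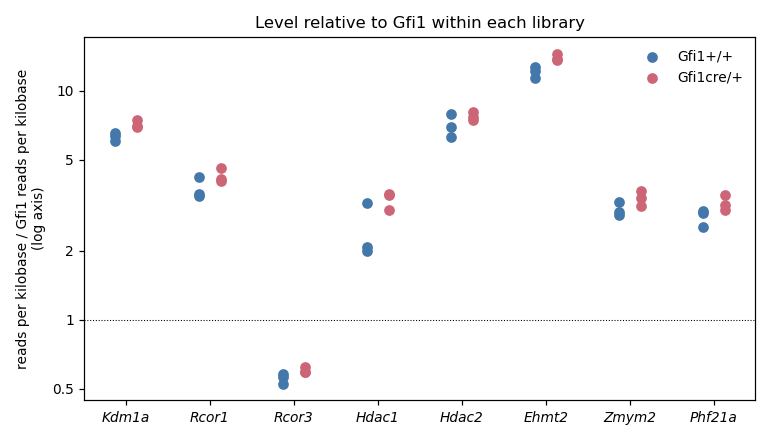
Reads per kilobase of merged exon of each corepressor gene divided by those of *Gfi1* in the same library (y axis, log scale), with 3 Gfi1+/+ libraries (blue) and 3 Gfi1cre/+ libraries (red) per gene. Both are summed over all cells of the tissue. *Rcor3* lies below the dotted line at 1, between 0.527 and 0.625, but by the longest transcript it is above *Gfi1* (93.8 against 50.3 reads per kilobase), *Ehmt2* is the highest at 11.4 to 14.5, and the red points sit on average above the blue ones for every gene.

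Each partner belongs to a family of related genes, and the share of each paralogue was computed from reads per kilobase of merged exon. The shares compare RNA levels and do not show which paralogue is in a complex with GFI1. *Kdm1a* held 81.0% ± 0.625 (SD over 6 libraries) of the reads of its pair with *Kdm1b* and was 4.28 ± 0.172 times as high. Per kilobase of the longest transcript its share was 86.9%. Of the exon bases of *Kdm1b*, 9.19% are shared with *Dek*, annotated on the opposite strand. Among the CoREST scaffolds, *Rcor1* held 56.1%, *Rcor2* 35.6% and *Rcor3* 8.22%, and per kilobase of the longest transcript the shares were 44.7%, 31.8% and 23.5%. *Rcor1* was 1.59 ± 0.179 times *Rcor2* and the higher in 6 of 6 libraries. *Rcor2*, a scaffold that is not among the 8 genes, was 4.40 ± 0.713 times *Rcor3*, or 1.37 ± 0.222 times per kilobase of the longest transcript, and the higher in 6 of 6 libraries by either length.

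Among the class I deacetylases, *Hdac3*, which works in the NCoR and SMRT complexes, held 59.7% ± 0.965, *Hdac2* 26.6%, *Hdac1* 10.4% and *Hdac8* 3.40%. *Hdac1* was 0.396 ± 0.104 times *Hdac2*, with a range of 0.255 to 0.517. With *Gm10093* added to *Hdac1* its share was 35.6% and that of *Hdac2* 19.1%, so which of the pair was the higher turned on the copy. *Ehmt2* held 76.5% ± 1.05 of its pair with *Ehmt1*, its partner in the active methyltransferase. Of the 3 genes *Zmym2*, *Zmym3* and *Zmym4*, *Zmym2* held 35.0%, beside 36.7% and 28.2%, and was the lower against *Zmym3* in 6 of 6 libraries by a factor of 0.954 ± 0.0345. The related *Zmym5* and *Zmym6*, at 98.9 ± 5.87 and 56.1 ± 2.43 reads per kilobase, were not part of these shares. *Phf21a* held 62.2% ± 2.42 and *Phf21b* 37.8%. Over the 15 pairs of paralogues compared within libraries, all had the same gene higher in 6 of 6 libraries. Exact sign-flip permutation tests gave a two-sided p = 0.0312 each, the smallest possible with 6 libraries, and 0.0312 after Benjamini-Hochberg adjustment over the 15. Those p-values cover the spread between libraries only. They do not cover gene length or copies, and with *Gm10093* added *Hdac1* was above *Hdac2*. Between the genotypes, 0 of 16 shares were without overlap, and the smallest p was 0.2 (exact permutation test, two-sided, 0.9 after Benjamini-Hochberg adjustment).

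**Figure D5:**
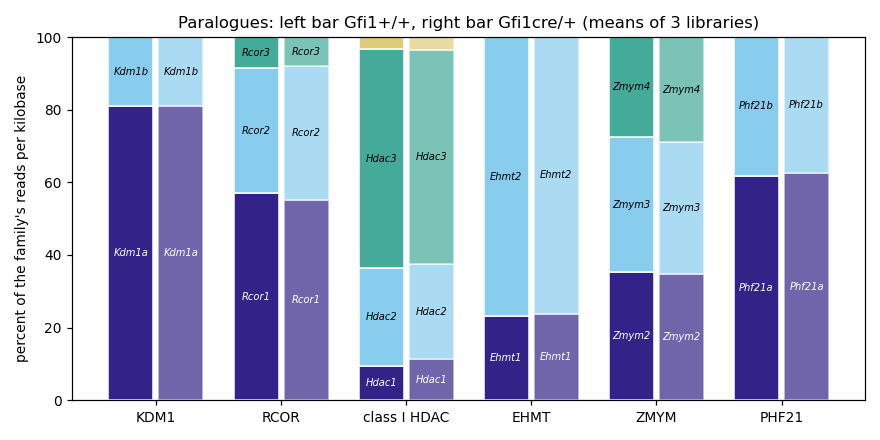
Percent of the reads per kilobase of merged exon (y axis, 0 to 100) that each paralogue takes within its family (x axis), as the mean of 3 Gfi1+/+ libraries (left bar) and of 3 Gfi1cre/+ libraries (right bar). The top segment of the class I deacetylases is *Hdac8*. Left and right bars are close in every family, with *Kdm1a* at 81.0% over all 6 libraries and *Hdac3* at 59.7%.

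None of the other genes listed around these partners was called. Of 17 other genes of the CoREST and G9a complexes, 12 were higher and 5 lower in Gfi1cre/+, 0 were called by limma at an adjusted p under 0.05 and 0 had an unadjusted p under 0.05, with a median log2 fold change of 0.03. Among those with the highest levels were the corepressor *Ctbp1*, at a log2 fold change of 0.06 (95% interval -0.09 to 0.20), the HMG-box subunit *Hmg20b* at -0.03 (-0.17 to 0.12) and *Ehmt1* at 0.09 (-0.05 to 0.22). Of 16 genes of the other complexes that hold HDAC1 and HDAC2, 10 were higher and 6 lower, 0 were called, 0 had an unadjusted p under 0.05 and the median was 0.02. The NuRD remodellers *Chd4* and *Chd3* were at 0.03 (-0.10 to 0.16) and 0.00015 (-0.13 to 0.13), and their partners *Mbd3* and *Mta1* at 0.01 and 0.04. Of 9 other histone deacetylases, 7 were higher and 2 lower, again with 0 called and 0 at an unadjusted p under 0.05 by limma. *Hdac3* was at -0.02 (-0.13 to 0.10), and the class II enzymes *Hdac5* and *Hdac7* and the class IV enzyme *Hdac11* were at 0.10, 0.05 and -0.08.

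Of 9 SNAG domain and REST factors written down as other users of the same partners, *Gfi1b*, *Insm1* and *Insm2* were not listed, and 3 of the other 6 were higher and 3 lower with 0 called and 2 at an unadjusted p under 0.05. These were the neuronal repressors *Scrt1* and *Scrt2*. *Scrt1* was at 81.5, 68.1 and 31.6 normalized reads in Gfi1+/+ and 14.8, 25.7 and 25.5 in Gfi1cre/+, which did not overlap, with a log2 fold change of -1.35 (95% interval -2.22 to -0.48; limma, unadjusted p = 0.00671, adjusted p = 0.999). *Scrt2* was at 40.7, 46.1 and 28.5 against 11.3, 16.0 and 31.1, which overlapped, with a log2 fold change of -1.04. Both were highest in the Gfi1+/+ replicates 1 and 2, which also had the highest summed neuron markers, and the part of those markers was not tested. *Snai1* and *Rest* were at 0.04 and -0.01.

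Of 7 other genes that write or read lysine 9 methylation, *Suv39h2* was too low to test, and the other 6 were all lower in Gfi1cre/+, with a median log2 fold change of -0.05, 0 called and 1 at an unadjusted p under 0.05. That gene was *Cbx3*, of the HP1 family of readers, at 114.8, 85.8 and 81.2 normalized reads in Gfi1+/+ and 72.2, 68.3 and 58.5 in Gfi1cre/+. Its groups did not overlap and its log2 fold change was -0.48 (95% interval -0.88 to -0.09; limma, unadjusted p = 0.0217, adjusted p = 0.999). Of the 100-base windows of its transcript, 23.9% have an exact copy in another gene's transcript, so its level is uncertain as that of *Hdac1* is. The other HP1 genes *Cbx1* and *Cbx5* were at -0.06 and -0.01 and the methyltransferase *Setdb1* at -0.01. Over 71 genes of these lists and families checked for copies, 62 had none, and 3 had copies of more than 10% of their windows, *Hdac1*, *Cbx3* and *Sap18*.

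Of 8 further proteins listed as binding GFI1, 6 were higher and 2 lower in Gfi1cre/+ with a median log2 fold change of 0.04, 0 called and 1 at an unadjusted p under 0.05. That gene was *Uhrf1*, a reader of methylated DNA and histones, at 87.6, 114.1 and 93.9 normalized reads in Gfi1+/+ and 109.7, 138.5 and 125.5 in Gfi1cre/+. Its groups overlapped and its log2 fold change was 0.34 (95% interval 0.01 to 0.67; limma, unadjusted p = 0.0451, adjusted p = 0.999). It is a gene of dividing cells, and 6 of 7 proliferation markers were also higher in Gfi1cre/+ (summed 1488 to 2072 normalized reads in Gfi1+/+ and 1883 to 2149 in Gfi1cre/+), whose part was not tested. *Pias3*, a SUMO ligase, was at 0.06, the LIM protein gene *Ajuba* at 0.13 and the splicing factor *U2af2* at -0.01.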

How the data were processed

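The authors aligned reads with TopHat to mm10 and counted uniquely mapped reads per gene with HTSeq, as far as the methods and the submitters' processing notes say; versions, annotation and strand setting are not given in the sources used here. The deposited value is a signal per gene and library. The methods name quantile normalization, but the values were whole reads divided by 1 size factor per library: 100% came out whole within 0.0051 normalized reads, and the recovered totals are the depths given. Samples were grouped by the labels' genotype. Per the methods, the 3 samples of each genotype were independent biological samples.

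Log2(value + 1) was fitted with limma 3.58.1 (lmFit, eBayes with trend, genotype only, two-sided) over the 14455 genes reaching 40 normalized reads in at least 1 library, with Benjamini-Hochberg adjustment over all of them. Fold changes are on this scale and understate those of low genes. Single ratios and shares were tested with exact permutation tests in scipy 1.17.1. edgeR 4.0.16 (quasi-likelihood) and DESeq2 1.42.0 on the recovered reads, both in R 4.3.3, were alternatives, as were other pseudocounts, filters and scalings, gene lengths, a replicate block and leaving out each library. Gene lengths, positions and transcripts came from GENCODE M21 (GRCm38, the same assembly as mm10), which matched 14791 of 14865 identifiers, and copies were sought with blastn 2.17.0 and exact 100-base windows. The members and lists were chosen with earlier results of these data known. Of each list, up to 4 genes were named, those with an unadjusted p under 0.05 first and then those with the most reads per kilobase, of which 1 is not reported here; the binding of listed proteins to GFI1 is background and was not checked.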

Additional observations from a re-analysis of the deposited data

How the results depend on the processing

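Of 152 log2 fold changes of the 8 genes under other settings, 139 kept their direction and their side of the threshold. Another 12 changed sign and 1 crossed the threshold, and the median over the 8 stayed between -0.017 and 0.017. Other filters, a fit without trend and a replicate block leave every log2 fold change as it was, so its direction could not change there. Adding *Gm10093* to *Hdac1* likewise leaves the fold changes of the other partners as they were. The count of the 8 genes called was 0 except without Gfi1+/+ replicate 3, where it was 1 (range 0 to 1). The count over all genes, 4, was 0 with a mean of at least 200, 10 with DESeq2, and 0 to 48 with 1 library left out (8 without Gfi1+/+ replicate 2, 48 without Gfi1+/+ replicate 3, 0 without Gfi1cre/+ replicate 3). Changes of sign were all small. *Kdm1a* was at 0.00065 when centred on the median, and *Rcor1* at -6.8e-06 with edgeR and -0.00053 with DESeq2. With 1 library left out, *Rcor1* ranged from -0.060 to 0.089, *Hdac2* from -0.12 to 0.017, *Zmym2* from -0.051 to 0.0087 and *Phf21a* from -0.030 to 0.052. In the order by reads per kilobase, 6 genes moved with the longest transcript, 7 with *Gm10093* added to *Hdac1* (chosen after seeing the data) and 0 to 2 with 1 library left out (2 without Gfi1+/+ replicate 1). Per kilobase of the longest transcript the family shares were 86.9% for *Kdm1a*, 44.7% for *Rcor1*, 23.5% for *Rcor3*, 13.6% for *Hdac1*, 32.8% for *Zmym2* and 65.5% for *Phf21a*. The cause of these changes was not tested. The labels number the replicates 1 to 3 in both genotypes, but deviations of same-numbered libraries correlated at -0.094, 0.107 and -0.033, so the numbers were not taken as pairs. A replicate block called 4 genes and 0 of the 8, and gave the ratio of the summed partners to *Gfi1* an exact permutation p = 0.25, the smallest that 3 pairs allow. The floor of 3 reads covers counting error only.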

Other observations

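The profile of *Hdac1* over the 6 libraries was set beside that of the 10365 genes averaging 200 or more normalized reads, a comparison chosen after its values had been seen. The nearest were *Aldh4a1*, *Padi1* and *Alpl*, at root mean square differences of 0.046, 0.048 and 0.076 on the centred log2 scale, then *Lcat* and *Ptgis* at 0.082 and 0.091. *Aldh4a1* encodes a mitochondrial dehydrogenase of proline breakdown, *Padi1* an enzyme that turns arginine in proteins into citrulline, and *Alpl* the phosphatase that marks mineralizing bone. *Alpl* was at 2092, 2134 and 3467 normalized reads in Gfi1+/+ and 2996, 3292 and 2928 in Gfi1cre/+, so it too was lowest in Gfi1+/+ replicates 1 and 2 and highest in Gfi1+/+ replicate 3. *Aldh4a1* was at 299.9, 318.3 and 489.4 against 448.2, 449.2 and 430.2, and *Padi1* at 313.5, 335.0 and 524.2 against 473.5, 487.3 and 454.8. Of these 5 genes, *Aldh4a1*, *Padi1* and *Alpl* lie on chromosome 4, as *Hdac1* does, *Lcat* on chromosome 8 and *Ptgis* on chromosome 2. Of the 10365 genes compared, 6.44% lie on chromosome 4. *Kdm1a* lies there too, and its flat profile was at rank 5094 from that of *Hdac1*. A link between chromosome and profile was not tested. *Gm10093*, *Hdac2* and the other partners did not share this profile, and the nearest of the 8 was *Rcor1* at rank 1228.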
